A study of Drosophila melanogaster with 6 samples.

Results

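The X-linked genes described here lie between Polr3A and Ubr1, both included, in the gene order of the RefSeq annotation of Drosophila melanogaster. Of 196 genes annotated in this stretch, 175 of them protein-coding, 154 had a probe set assigned to them alone, and 111 of these had a mean log2 signal over the 6 arrays in the upper 50% of all non-control probe sets. Leaving out mRpS30, ND-20, Prosalpha4 and mRpL22 by symbol left 107 members, each represented by its brightest probe set, out of 7801 genes tested, of which 1000 lie elsewhere on X and 6636 on chromosomes 2 and 3. The stretch was picked because its median mutant-minus-control difference was low among bins of X. All differences between the genotypes in its members are therefore descriptive, and no test of the stretch is given. The annotation served for gene order only.

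Each array, a single-colour Affymetrix Drosophila Genome 2.0 chip, held total RNA of one preparation from 50 male larvae of the third instar. The mutant larvae (3 arrays) had the genotype y+ w roX1- roX2-/ Y, with SMC17A as the only roX1 allele used. The control larvae (3 arrays) were y+ w roX1+ roX2-/ Y, so that the roX2 mutation was shared by both groups and the controls were not wild type at roX2. Signals are given on a scale on which the median of tested autosomal genes is 100 on every array, and log2 differences are means of log2 signal in the mutant less those in the control. A gene is said to have risen or fallen where it passed a Benjamini-Hochberg adjusted p under 0.05 in a limma fit of all tested genes.

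In male flies the MSL complex, a set of proteins assembled with the noncoding RNAs roX1 and roX2, binds along the single X chromosome and acetylates histone H4 in active genes. Transcription of the X is thereby raised to match that of the paired X chromosomes of females. The roX RNAs are partly redundant with each other, and their loss together lowers binding of the complex to the X. The comparison addresses how the expression of X-linked genes depends on roX1 when roX2 is already mutated.

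Across genes, which are not independent replicates, the lowest correlation between arrays was 0.972 within the mutant and 0.984 within the control, and 0.889 to 0.926 was found between groups. No probe set was named roX1 or roX2, so the genotype was not checked at these loci. Of 12 listed genes of the MSL complex or its partner proteins, 8 were tested; JIL-1 fell by 0.63 on the log2 scale and 7 did not pass. Whole larvae hold many tissues, and fewer cells of a type cannot be told apart from less RNA per cell. Of 7 sets of tissue markers, the summed signals of 4 did not overlap between the genotypes. The 7 salivary gland genes gave 12643 to 13359 on mutant arrays and 15060 to 15464 on control arrays, with 5 falls and 1 rise. The largest of these falls was in Sgs4 (-0.68), the falls of Sgs3, Sgs5, Sgs7 and Sgs8 lay between -0.23 and -0.15, and ng1 rose (1.65). The 3 muscle genes measured (Mlp60A, up and Tm2) gave 2212 to 3470 on mutant arrays and 1672 to 2218 on control arrays, with 2 rises and a narrow overlap. The summed signal of 8 testis genes was 2636 to 2954 on mutant arrays and 2072 to 2365 on control arrays, with 3 rises (among them betaTub85D, 0.62) and 1 fall (sa, -0.50) among the 5 tested. Of the testis genes under the signal limit, can and nht were lower on every mutant array and dj overlapped between the groups. The sum for 6 hemocyte genes was 953 to 1071 on mutant arrays and 1083 to 1249 on control arrays, with 4 falls and 1 rise (Hml, 0.75). For 4 nervous system genes it was 66.0 to 83.2 on mutant arrays and 102 to 119 on control arrays, with 2 falls among the 2 tested. These falls were in elav (-0.53) and Appl (-1.02), while in nSyb and brp, under the signal limit, the groups overlapped. For 3 fat body genes the sum was 6006 to 6773 on mutant arrays and 6676 to 6821 on control arrays, with 1 fall and 1 rise. The female yolk protein genes Yp1, Yp2 and Yp3 summed to 11.8 to 19.4 on mutant arrays and 14.4 to 18.4 on control arrays, and each lay under the signal limit. The sets were listed by tissue and not by chromosome, so a difference in X-linked markers can enter their sums. The part of these marker differences in the results below was not tested.

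Of the 107 members, 61 fell, 8 rose and 38 did not pass. Over all genes tested 32.4% fell and 23.1% rose, and among the other X-linked genes 46.9% fell and 10.7% rose. All 3 mutant arrays lay below all 3 control arrays in 64 members and above them in 9, against 36.9% and 26.4% of all genes tested. The median log2 difference was -0.39 over the members, a 23.6% lower signal, beside -0.28 over the other X-linked genes, -0.02 over chromosomes 2 and 3 and -0.06 over all genes tested. Because the stretch was chosen on this contrast, nothing is read from these shares. Without mutant array 2 the rises numbered 4 and without control array 2 they numbered 5. Over all genes tested 18.1% and 19.7% rose in these 2 fits, fewer than with all arrays. With signals as deposited, without rescaling, 52 members fell and 14 rose, while over all genes tested 21.9% fell and 30.8% rose and the median was 0.07 in place of -0.06.

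Measured on each array as the deviation from the control mean, the members' median was -0.42, -0.39 and -0.47 in the 3 mutant preparations and 0.03, 0.0044 and -0.0021 in the 3 control preparations. After subtracting the same median for chromosomes 2 and 3, the mutant arrays averaged -0.41 ± 0.030 and the control arrays 0.01 ± 0.021 (SD, n = 3 each). Against the other X-linked genes the members lay lower in median, at -0.14, -0.13 and -0.18 on mutant arrays, and stood at 0.02, 0.02 and -0.02 on the control arrays. The 3 mutant arrays therefore gave nearly equal values, and the control values lie near 0 by construction.

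**Figure D1:**
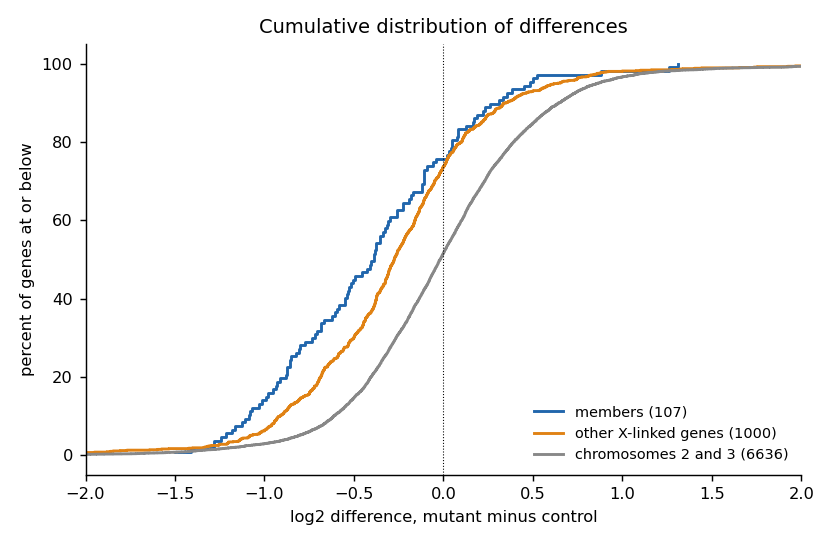
Cumulative percentage of genes (vertical axis) at or below each log2 difference, mutant minus control (horizontal axis, drawn from -2 to 2), for the 107 members, the 1000 other X-linked genes and the 6636 genes of chromosomes 2 and 3. The members' curve lies left of the other X-linked genes over most of the negative range and meets it near 0, where 81 members have been passed.

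The members varied more among themselves than this median conveys. Differences ran from -1.50 to 1.31, with the middle 50% between -0.84 and -0.05, beside -0.59 to 0.02 for the other X-linked genes. Of the 61 falls, 15 were by at least 2-fold, 25 by 1.5-fold to 2-fold and 21 by less than 1.5-fold. Those of at least 2-fold made up 14% of the members, beside 6.2% of the other X-linked genes and 3.47% of all genes tested. In the plot of cumulative distributions the members' curve lies furthest from the rest of X among the larger falls, in values on which the stretch was picked. At or above 0 stood 26 members, beside 264 of the 1000 other X-linked genes.

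Gene order inside the stretch went along with the size of the difference. Dividing the members into 4 consecutive segments after their values were seen, the first segment, from Polr3A to vap, had a median of -0.83 with 21 of 27 members falling. The second, from CG12698 to CG4239, stood at -0.43 with 17 falls and 1 rise. The third, from TH1 to CG4653, stood at -0.31 with 13 falls and 4 rises, and the last, from CG9672 to Ubr1, at -0.11 with 10 falls and 3 rises among 26 members. The first segment's median was -0.83, -0.85 and -0.78 on mutant arrays, and the second segment's was -0.58, -0.40 and -0.48. The third segment's was -0.22, -0.36 and -0.36, and the last segment's was -0.19, -0.07 and -0.14, so that neighbouring segments lay close together on some arrays. A fall of 2-fold or more was seen in 8 members of the first segment, 4 of the second and 3 of the third, and the 10 falls of the last were by less than 2-fold. The longest unbroken run of falling members held 7 genes, from CG8952 to Chc, and the next held 6, from CycD to eIF5.

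**Figure D2:**
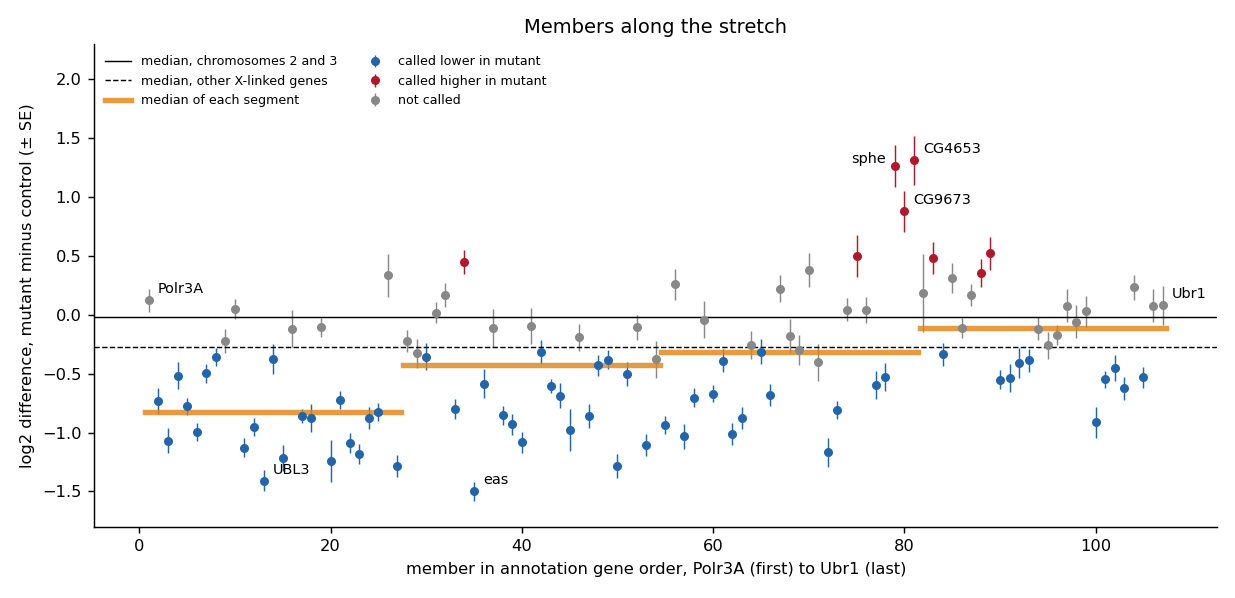
Log2 difference, mutant minus control, with its standard error (vertical axis) for each of the 107 members in gene order (horizontal axis), coloured by call, with orange bars for the median of each segment and lines for the medians of other X-linked genes and of chromosomes 2 and 3. Segment medians run from -0.83 at the Polr3A end to -0.11 at the Ubr1 end, and 3 neighbouring protease genes stand highest.

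Set against the whole chromosome, both extremes of a running median lay at or in the stretch. The stretch was picked for its low median, so a low window there is in part given by that choice, and nothing is read from it. Over 1085 windows of 27 consecutive tested X-linked genes, the lowest median was -0.85, from Graf to Slc25A46a, with 25 of the 27 genes inside the stretch and 22 falls. The lowest window with no gene of the stretch, from Usp30 to CG3842, stood at -0.61. The highest median of all windows was 0.04, from CG9784 to CG4768, and lies wholly inside the stretch, with 9 falls and 7 rises. The median over windows was -0.30. Of the 3 tested genes nearest to Polr3A outside the stretch, Graf fell by 0.85 and mRpL3 by 0.93 on the log2 scale and CCT6 did not pass (-0.25). Of the 3 nearest to Ubr1, CG43996 fell by 0.49 and CG43077 by 0.53, and CG4955 rose by 0.75. The end genes themselves did not pass, Polr3A at 0.12 and Ubr1 at 0.08. The 107 tested genes before Polr3A had a median of -0.25 with 52 falls, and the 107 after Ubr1 a median of -0.36, also with 52 falls.

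**Figure D3:**
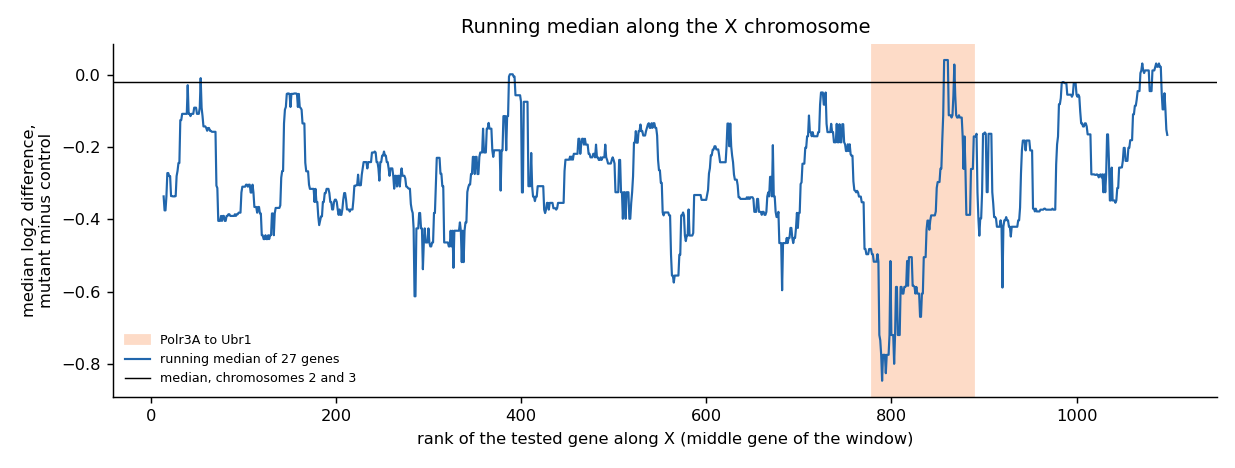
Median log2 difference, mutant minus control (vertical axis), over 27 consecutive tested X-linked genes, plotted at the rank of the middle gene along X (horizontal axis), with the stretch shaded. The curve reaches its minimum of -0.85 at the left edge of the shaded region and its maximum of 0.04 in the right part of it.

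Median differences were larger in the brighter members, whereas the share of members that fell by at least 2-fold was not. In the 4 signal classes that divide all tested X-linked genes evenly, the members' median was -0.25 (32 members), -0.23 (17), -0.56 (30) and -0.57 (28) from the dimmest to the brightest class. The other X-linked genes stood at -0.27, -0.24, -0.31 and -0.29 in the same classes. In the brightest class 22 of 28 members fell, beside 130 of 248 other X-linked genes. Falls of at least 2-fold made up 12.5%, 11.8%, 20% and 10.7% of the members from the dimmest to the brightest class. Members near the signal limit could be kept through the signal of one group alone. Just inside the limit were Axs (-0.60), Polr3I (-0.91) and CG8939 (0.33), and just outside it mthl1 (-0.77), CG32576 (-1.18) and CG9609 (-0.05). In 12 members, 11 of them called, the lower group's mean lay under the median probe set (28.0), which leaves the size of their difference uncertain. They were Rhp, AlkB, CycD, CG8939, CG32579, PIG-Q, CG9777, rudimentary (r), Axs, sphe, CG4768 and Polr3I.

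**Figure D4:**
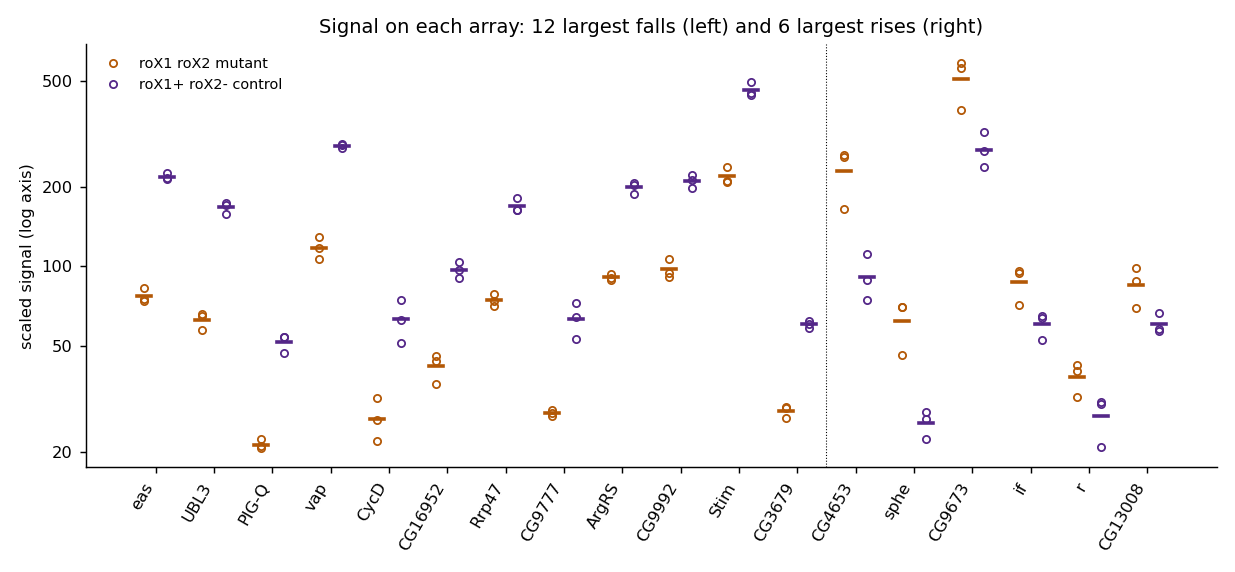
Scaled signal on a log axis (vertical) of the 12 members with the largest falls and the 6 with the largest rises (horizontal), with an open circle per array, a bar for the group mean, and the mutant left of the control for each gene. For each gene every mutant value lies outside the range of the control values, which was a condition for choosing these genes.

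The largest fall was in eas, the ethanolamine kinase gene of phosphatidylethanolamine synthesis, with signals of 83.2, 73.7 and 75.1 in mutant larvae and 225, 215 and 214 in control larvae. All mutant arrays lay far below the controls, at a log2 difference of -1.50 (SE 0.0824), or 0.35 of the control level. UBL3, named for a ubiquitin-like protein, had 65.1, 66.1 and 57.6 in mutant larvae and 170, 174 and 158 in control larvae (-1.41, SE 0.0891). The Ras GTPase-activating protein gene vap measured 129, 106 and 118 in mutant larvae, against 281, 286 and 289 in control larvae (-1.28, SE 0.0918). Within each of these genes the arrays of a group lay close together compared with the gap between the groups. PIG-Q, a gene of GPI-anchor synthesis, had 20.6, 20.9 and 22.3 in mutant larvae and 54.0, 54.1 and 47.2 in control larvae (-1.28), and CycD, encoding the cyclin partner of Cdk4, 26.3, 21.9 and 31.7 in mutant larvae and 51.6, 74.8 and 62.7 in control larvae (-1.24). For PIG-Q and CycD the mutant signals lay around or under the median probe set. The other 7 of the 12 largest falls were CG16952 (-1.22), Rrp47 (-1.18), CG9777 (-1.17), ArgRS (-1.13), CG9992 (-1.11), Stim (-1.09) and CG3679 (-1.08). The groups did not overlap in any of the 12, which was a condition for choosing them.

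By known function, 65 members were placed in 8 role groups, with earlier results of these data known, and the other 42 carry mostly CG names and were given no role (22 fell and 1 rose, median -0.36). The groups are small, several of their genes are neighbours, and the 32.4% of falls and 23.1% of rises among all genes tested stand beside each count below.

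**Figure D5:**
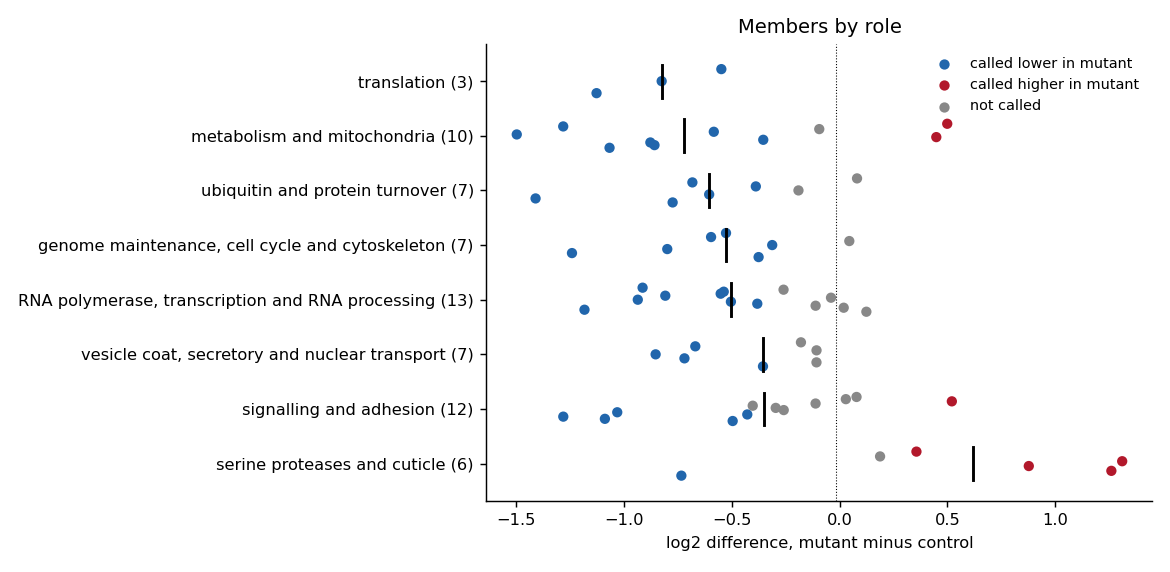
Log2 difference, mutant minus control (horizontal axis), of the 65 members with a role, in 8 groups (vertical axis, with the number of members), coloured by call, with a black bar for the group median and a dotted line at the median of chromosomes 2 and 3. Group medians lie between -0.83 and -0.35 in 7 groups and at 0.62 in the serine protease and cuticle group.

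Among genes of RNA polymerases, transcription and RNA processing 8 of 13 fell and 5 did not pass, with a median of -0.50. Rrp47, a cofactor gene of the RNA exosome in yeast, had 78.5, 73.9 and 70.9 in mutant larvae and 163, 182 and 163 in control larvae (-1.18, SE 0.0855). SNRPG, which encodes a core protein of spliceosomal snRNPs, had 229, 230 and 219 in mutant larvae and 381, 415 and 393 in control larvae (-0.81, SE 0.0738). Both were separated without overlap. Sap30, of the Sin3 histone deacetylase complex, fell by 0.55 on the log2 scale and U2af50, the large subunit of the splicing factor U2AF, by 0.38. The 3 genes acting in translation fell: ArgRS, the arginyl-tRNA synthetase gene, with 88.7, 93.9 and 90.2 in mutant larvae and 202, 206 and 188 in control larvae (-1.13), eIF5 (-0.83) and DENR, a factor of translation reinitiation (-0.55).

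Genes of metabolism and mitochondria fell in 7 of 10 cases and rose in 2, with a median of -0.72. MSBP, encoding a membrane steroid binding protein, had 444, 438 and 452 in mutant larvae and 806, 792 and 822 in control larvae, with a log2 difference of -0.86 (SE 0.0612). Its arrays varied little within each group. UQCR-14, a subunit gene of respiratory complex III, measured 514, 685 and 671 in mutant larvae and 1004, 930 and 852 in control larvae (-0.58), and Nipsnap fell by 0.35, a call lost without control array 1 or control array 2, without rescaling and with the block. Had1 had 403, 632 and 570 in mutant larvae and 563, 560 and 561 in control larvae and did not pass, mutant array 1 lying below the controls and the other mutant arrays at or above them. The rises were in Mfe2, a multifunctional enzyme of peroxisomal fatty acid oxidation, with 310, 388 and 310 in mutant larvae and 238, 243 and 253 in control larvae (0.45), and in rudimentary (r), the trifunctional gene of pyrimidine synthesis, with 42.6, 40.1 and 32.0 in mutant larvae and 30.3, 20.8 and 30.7 in control larvae (0.50). The call of r was lost on leaving out mutant array 1, mutant array 2 or control array 2, with no signal filter and with the block.

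Of 7 genes of ubiquitin and protein turnover 5 fell, and CalpC at -0.19 and Ubr1, an N-recognin ubiquitin ligase gene, at 0.08 did not pass. Cyp1, a cyclophilin gene, had 1061, 1172 and 1106 in mutant larvae and 1751, 1721 and 1606 in control larvae (-0.61, SE 0.0628). Its groups lay well apart. sordd1 (-0.77), Ubc7, a ubiquitin-conjugating enzyme of ER-associated degradation (-0.68), and rngo, a Ddi1 family gene first studied in oocyte ring canals (-0.39), also fell.

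The vesicle coat, secretory and nuclear transport genes gave 4 falls among 7, with a median of -0.36. ERp44, of the thioredoxin family in the endoplasmic reticulum, had 210, 224 and 224 in mutant larvae and 369, 425 and 397 in control larvae (-0.85, SE 0.0821). Ranbp16, an exportin gene, and Cdc50, a subunit of lipid flippases, fell by 0.72 and 0.67 on the log2 scale. Chc, the clathrin heavy chain gene, had 442, 444 and 388 in mutant larvae and 532, 554 and 542 in control larvae, a fall of 0.36 that was lost without rescaling. The dynamin gene shi was read by 3 kept probe sets that differed: the brightest gave 94.9, 99.9 and 91.1 in mutant larvae and 105, 97.9 and 105 in control larvae (-0.11, not passing), and the others stood at -0.38 and -0.89, both passing over all kept probe sets. The level of shi therefore depends on the probe set. The probe sets of nonA, an RNA-binding protein gene of vision and courtship song, all fell (-0.50, -0.73 and -0.33).

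In genome maintenance, cell cycle and cytoskeleton 6 of 7 members fell, with a median of -0.53. kat80, the regulatory subunit gene of the microtubule-severing enzyme katanin, had 30.6, 30.9 and 31.2 in mutant larvae and 51.7, 56.8 and 52.9 in control larvae (-0.80). The cohesin subunit gene SMC3 fell by 0.31, a call lost when any array other than mutant array 1 or control array 2 was left out, under the other scalings, with no signal filter and with the replicate number in the fit (the block). Septin4 fell by 0.53, and Nemp stood at 0.05. Signalling and adhesion genes were more mixed, with 5 falls, 1 rise and 6 that did not pass among 12. Stim, the calcium sensor of the endoplasmic reticulum that opens store-operated channels, had 238, 210 and 208 in mutant larvae and 451, 498 and 446 in control larvae (-1.09, SE 0.0872). PGRP-LE, a peptidoglycan receptor of the Imd pathway, had 167, 170 and 169 in mutant larvae and 256, 234 and 225 in control larvae (-0.50), and sl, encoding phospholipase C gamma, fell by 0.43. The calcineurin gene Pp2B-14D had 79.9, 81.2 and 72.2 in mutant larvae and 102, 78.1 and 100 in control larvae (-0.26, not passing), control array 2 alone reaching the mutant range. Control array 2 was the lowest control in 20 of the 38 members that did not pass and in 15 of the 61 that fell. It was the lowest control in 41.1% of the other X-linked genes and in 29.1% of the genes of chromosomes 2 and 3. A call depends on how near the control arrays lie to the mutant range, so the 2 counts differ in part by construction. Without control array 2, Pp2B-14D, mbt, Rok and CalpC passed as well, while 7 other calls were lost (AlkB, Nipsnap, r, CG13008, CG34325, Twdlalpha and CG4768).

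The rises gathered in one place. Serine protease and cuticle genes gave 4 rises and 1 fall among 6 members, with a median of 0.62, and sphe, CG9673 and CG4653, which follow each other among the members, all rose. CG4653, a predicted serine protease gene, had 164, 264 and 259 in mutant larvae and 112, 88.5 and 74.5 in control larvae (1.31, SE 0.211). sphe, a serine protease homologue acting in Toll pathway activation, had 46.3, 70.1 and 70.5 in mutant larvae and 26.6, 28.1 and 22.2 in control larvae (1.26, SE 0.179), and CG9673 had 389, 585 and 561 in mutant larvae and 320, 272 and 236 in control larvae (0.88, SE 0.172). In all 3 genes mutant array 1 was the lowest mutant array, and it still lay above every control array. CG9672, the next member in order, had 59.0, 134 and 108 in mutant larvae and 124, 66.4 and 70.7 in control larvae, so its groups overlapped (0.19, not passing). CG8952, a predicted serine protease gene at the Polr3A end, went the other way with 400, 474 and 414 in mutant larvae and 787, 742 and 619 in control larvae (-0.73, SE 0.109).

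Close by, CG13008 rose by both of its kept probe sets (0.48 and 0.81), the first with 98.4, 88.2 and 69.7 in mutant larvae and 57.1, 57.9 and 66.8 in control larvae. The Tweedle cuticle gene Twdlalpha rose by 0.36 and inflated (if), the alphaPS2 integrin gene of muscle attachments, by 0.52, with 71.7, 95.7 and 94.6 in mutant larvae and 64.1, 52.8 and 64.9 in control larvae. Of the 6 listed muscle markers 3 were tested: up and Tm2 rose, and Mlp60A did not pass, its mutant array 1 lying below control array 1. A relation of these markers to the rise of if was not tested. The calls of CG13008 and Twdlalpha were lost in 3 and 4 of the 6 fits that left out an array (that of Twdlalpha also with the block), and that of if in the fit without mutant array 2. Mfe2, in the second segment, was the only rise before rudimentary (r) in gene order.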

How the data were processed

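The deposited values are linear intensities per probe set, 1 column per array. The submitters' processing notes name GCOS 1.2, and the series' design text, per the labels, has the authors keep genes by present calls and bring the autosomal median to 100. The medians of the deposited intensity values over all non-control probe sets were 106 to 108 in the mutant and 102 in the control, so which genes were scaled on is unknown, and the way probes were summarised was not given in any source used here. Between 110 and 165 values per array lay at or below 0, and no member had such a value.

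Probe sets were named through a platform table updated by gene ID to the RefSeq gene table (Release 6 plus ISO1 MT), used only for names and gene order. Of 18769 non-control probe sets, 13647 had 1 gene, 402 several and 4720 none listed. A probe set was kept (9384 were) if its mean log2 signal over the 6 arrays lay in the upper 50%, and the brightest stood for each gene, which left 7801 genes. Each array was multiplied by 1 factor (0.246, 0.260 and 0.262 in the mutant, 0.280, 0.279 and 0.279 in the control). Any value of 0 or less was replaced by the smallest positive one before taking log2. Genes were fitted with limma 3.58.1 (eBayes with trend) in R 4.3.3, group being the only term, and called at a Benjamini-Hochberg adjusted p under 0.05. The fit was tested on simulated data. The series' design text calls the 3 preparations per genotype independent, and their number limits the precision of all values.

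The members, the gene lists and the role groups were chosen with earlier results of these data known. Named genes are the ends of the stretch, the 12 largest falls and 6 largest rises without overlap of the groups, the 6 brightest members and up to 5 brightest members per role (one gene that this rule picks is not reported here); others are named where a count or limit turns on them, with their values seen. Replicate numbers did not pair the arrays: deviations of mutant and control arrays of the same number correlated at -0.34, -0.06 and -0.38. Between arrays of different number the correlations ran from -0.36 (mutant 2 and control 3) to 0.35 (mutant 2 and control 1) and 0.51 (mutant 1 and control 3). Some deviations were thus shared across the genotypes, and their source was not tested.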

Additional observations from a re-analysis of the deposited data

How the results depend on the processing

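The direction of the members' median held under all 18 alternatives run. The stretch was picked for a low median in these same arrays, so refitting them could hardly reverse its direction. Nothing is therefore read from its holding. The number of members that fell stayed within 1.5 times the 61 reported, except in the upper 25% of probe sets by signal. With no signal filter more members were tested (74 falls and 8 rises among 150, beside 25.5% and 17.6% of all genes tested there). That count is therefore not of the same members as the 61. In the upper 25% fewer members were tested (36 falls and 3 rises among 47, beside 36.6% and 22.6% of all genes tested there). There the median was -0.63, or -0.58 relative to chromosomes 2 and 3 and -0.30 relative to the other X-linked genes. Without rescaling 14 members rose in place of 8, and the median was -0.26. It was -0.34 with the median of all genes as the scale, -0.35 with an offset of 16 and -0.23 with an offset of 50. Relative to chromosomes 2 and 3 the median of the fitted differences was -0.37, with -0.33 under the offset of 16, -0.22 with that of 50 and -0.32 with no signal filter. Relative to the other X-linked genes it was -0.11, and -0.082 with the offset of 50. An offset shrinks log2 differences by construction, and a change of the factor per array adds 1 constant to every gene (0.13 without rescaling and 0.05 with the median of all genes). On leaving out 1 array at a time the falls numbered 58 to 65 and the rises 4 to 9. Over all genes tested 27.1% to 32.2% fell and 18.1% to 23.3% rose in these fits. The 3 medians ran from -0.43 to -0.38, -0.41 to -0.36 and -0.17 to -0.12.

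With the replicate block 56 members fell and 7 rose, beside 27.8% and 19.6% of all genes tested. In that fit 7 calls were lost, among them Nipsnap, SMC3, rudimentary (r) and Twdlalpha, and 1 was gained. As the numbers do not pair the arrays, this says nothing on the size of the effects. Of the named genes, those near 0 changed sign: Had1 stood at 0.032 and shi at 0.019 without rescaling. On leaving out 1 array Had1 ran from -0.23 to 0.097, Ubr1 from -0.084 to 0.19, Nemp from -0.037 to 0.097 and CG9672 from -0.062 to 0.53. None of these passed in these fits; shi passed (-0.46) with the mean of its probe sets. Low signal limits the size of the difference in the 12 members listed in the results.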

Other observations

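Beside the members, 43 annotated genes of the stretch with a probe set of their own lay under the signal limit. All mutant arrays were below all control arrays in 16 of them (37.2%) and above in 1 (2.33%), and in 26 the groups overlapped. Over all genes tested these shares were 36.9% and 26.4%, but those genes lay over the limit. The comparison is therefore not between genes of like signal, and overlap was not counted in dim genes elsewhere. The limit was set on the mean over both groups: in 7 of the 43 the control mean, and in 1 the mutant mean, lay over the median probe set (28.0). No call is given here for single genes of these 43. sun, the epsilon subunit gene of ATP synthase, had 4.37, 7.71 and 6.48 in mutant larvae and 18.2, 20.7 and 18.3 in control larvae. Lcch3, a GABA receptor subunit gene, had 14.7, 13.0 and 14.9 in mutant larvae and 30.8, 37.2 and 30.3 in control larvae. CG8924 and CG9919 had mutant means of 15.6 and 13.9 and control means of 37.6 and 35.0. Groups overlapped in the sodium channel gene para (mutant mean 3.65, control mean 4.17) and in the transcription factor gene disco (mutant mean 23.8, control mean 26.7). The Tweedle gene TwdlX had 11.8, 45.6 and 34.0 in mutant larvae and 14, 4.01 and 2.99 in control larvae, mutant array 1 alone lying within the range of the controls. In its relatives TwdlY (mutant mean 6.11, control mean 7.52) and TwdlZ (mutant mean 3.85, control mean 3.44) the groups overlapped. Names were chosen after these values were seen.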
